A study of Homo sapiens with 6 samples.

Results

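HHIP and 7 further genes of the Hedgehog pathway (PTCH1, GAS1, SMO, SUFU, GLI1, GLI2 and GLI3) were followed in MDA-MB-231 cells, a human breast cancer cell line, after transfection of 2 microRNA precursors. The probes were those whose accession is a RefSeq transcript of one of the 8 genes. They numbered 14 of the 50599 probes on the arrays, and the genes were 8 of 21743 that could be named. HHIP was chosen by its rises with both precursors in these same arrays, so its differences from the control are given as a description with no test. The other genes were taken for their place in the pathway.

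All cells were reverse transfected with an Ambion precursor at 30 nM, and the series places RNA collection at 72 h. A first group received the hsa-miR-205-5p precursor, a second the hsa-miR-214-3p precursor and the control group a scrambled negative-control precursor, with 2 one-color Agilent arrays per group, all 6 on 1 slide. The labels do not say whether the replicates came from separate cultures, so p-values measure only the spread between these arrays, which may be technical. The microRNAs themselves were not measured on these mRNA arrays, and RNA came from whole cultures, so a change in every cell and a change in some of the cells cannot be told apart.

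Hedgehog ligands bind the receptor PTCH1, which otherwise holds the membrane protein SMO inactive. Active SMO releases the GLI transcription factors from the restraint of SUFU and of protein kinase A. HHIP sits at the cell surface, binds the ligands in competition with PTCH1 and is itself a known response gene of the pathway, as PTCH1 and GLI1 are. In breast tissue the pathway is known for signals between epithelium and stroma, and GLI factors can also be switched on without ligand in cancer cells.

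The mature microRNAs are shown because both groups with raised HHIP are defined by them. Capitals mark the seed (bases 2 to 8), and sequences and positions are those of RefSeq on GRCh38.p14, the first at chr1:209432166-209432187 on the plus strand and the second at chr1:172138816-172138837 on the minus strand.
hsa-miR-205-5p: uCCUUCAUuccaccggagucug
hsa-miR-214-3p: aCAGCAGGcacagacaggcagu
The seeds carried the same base at 1 of 7 positions. The genomic stretch between the starts of HHIP and of HHIP-AS1, an antisense transcript that runs the other way, is shown because the probe of each gene reports on one side of it. It spans chr4:144646020-144646155, read on the plus strand, in 136 bases with 68.4% G and C and 16 CpG.
HHIP to HHIP-AS1: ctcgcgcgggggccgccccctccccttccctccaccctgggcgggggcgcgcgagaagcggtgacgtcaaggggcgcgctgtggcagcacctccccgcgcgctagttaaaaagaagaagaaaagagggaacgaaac
The GLI binding motif GACCACCCA (TGGGTGGTC on the other strand) had 0 matches in it. Over the windows from 250 bases before to 50 bases after a gene's start, the motif occurred in 0 of 1 window for HHIP and for HHIP-AS1, in 1 of 5 for PTCH1, in 0 of 2 for GLI2 and in 0 of 1 each for SMO, SUFU and GAS1. Of all 35116 such windows, 83 (0.236%) held it.

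The arrays were of like quality, with 35.4% to 42.2% of 58717 spots well above background per array, 0 saturated spots and a 75th percentile of the signal between 35.1 and 58.0 before scaling. Values below are log2 of the processed signal relative to that percentile of the same array, and a probe's value was not set against that of another probe. The root mean square difference between the replicates over the 18468 probes kept was 0.51 with hsa-miR-205-5p, 0.34 with hsa-miR-214-3p and 0.67 in the control. The lowest signal well above background ranged from -2.54 on scrambled replicate 2 to -1.44 on hsa-miR-205-5p replicate 2, so a difference that involves a dim array is marked as such. VIM, CD44 and AXL, markers of the mesenchymal-like state of this line, were well above background on all 6 arrays, while no probe of the hormone receptors ESR1 and PGR was on any. CDH1, an epithelial cadherin that was listed as dim in this line, was above background on all 6, at 0.87 and 0.64 with hsa-miR-205-5p, -1.30 and -1.47 with hsa-miR-214-3p and -1.09 and -1.33 in the control, and its part in the results below was not tested.

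HHIP was well above background on all 6 arrays. Its processed signal was 183 and 147 with hsa-miR-205-5p, 211 and 156 with hsa-miR-214-3p, and 30.2 and 43.1 in the control. On the scaled log2 level these were 2.13 and 2.06, then 2.12 and 2.09, then -0.73 and -0.43. All 4 precursor arrays lay above both control arrays, and the arrays of both precursors lay within a narrow band of each other. The means were 2.10 ± 0.05 (SD, n = 2) with hsa-miR-205-5p, 2.11 ± 0.02 with hsa-miR-214-3p and -0.58 ± 0.22 in the control.

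The mean log2 difference from the control was 2.68 with hsa-miR-205-5p, or 6.40-fold, and 2.69 with hsa-miR-214-3p, or 6.43-fold. Over the pairs of a precursor and a control array it ran from 2.49 to 2.86 and from 2.52 to 2.86. Both differences use the same 2 control arrays. Between the precursors the difference was -0.01, with array pairs from -0.06 to 0.04, which is less than the 0.31 separating the control arrays. With normexp background correction, which adds an offset to every signal, the differences were 1.51 and 1.56, and when any 1 array was left out they lay between 2.52 and 2.84. One probe with a single spot stands for HHIP, so no second probe bears on these values.

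Among all 18468 probes, HHIP had the 22nd largest rise with hsa-miR-205-5p and the 4th largest with hsa-miR-214-3p, where the largest were 4.44 and 3.42. There were 0 other probes that rose at least as much with both. The named genes just above it with hsa-miR-205-5p were SLC45A4 (2.82), ERVMER34-1 (2.78), INSC (2.77), IFNL2 (2.72) and RSAD2 (2.72), and those just below were RELL1 (2.61), TMC5 (2.59), TGM2 (2.59), PKIA (2.58) and L3MBTL1 (2.57). With hsa-miR-214-3p, ARMH4 (3.42) and FSTL1 (3.08) stood above HHIP, and IL21R (2.68), CD274 (2.47), PRELID2 (2.44), CEMIP2 (2.40) and PTPRQ (2.35) just below. These ranks describe the choice of HHIP and are not a result about the pathway.

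The probes whose 6 values were most alike to those of HHIP were sought among 1014 that spanned at least 2 log2 units. Each of the 1014 also had a gene symbol and was well above background on every array of both precursors. No such demand was made of the control arrays, so probes dim with a precursor were not compared. The most alike of the 1014 were FZD5, a Wnt receptor (Pearson r = 0.998 across the 6 arrays), IL1RAP, a co-receptor for interleukin-1 (0.993), SWAP70 (0.975), BCAP29 (0.971) and CEMIP2, a cell-surface hyaluronidase (0.967). The 6 arrays fall into 3 groups that these probes share, so r is a description. FZD5 differed from the control by 2.09 with hsa-miR-205-5p and 2.05 with hsa-miR-214-3p, and IL1RAP by 2.44 and 2.15. The log2 differences of the other 3 lay between 1.64 and 2.40.

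HHIP-AS1, read from the opposite strand beside HHIP, was not well above background on any array, with values from -3.57 to -2.74. Of the HHIP relatives, HHIPL2 was not above background on any array. HHIPL1 was above it on 1 array with 1 of its 2 probes, at 1.56 on hsa-miR-205-5p replicate 2 against -3.67 on replicate 1 of the same group.

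**Figure D1:**
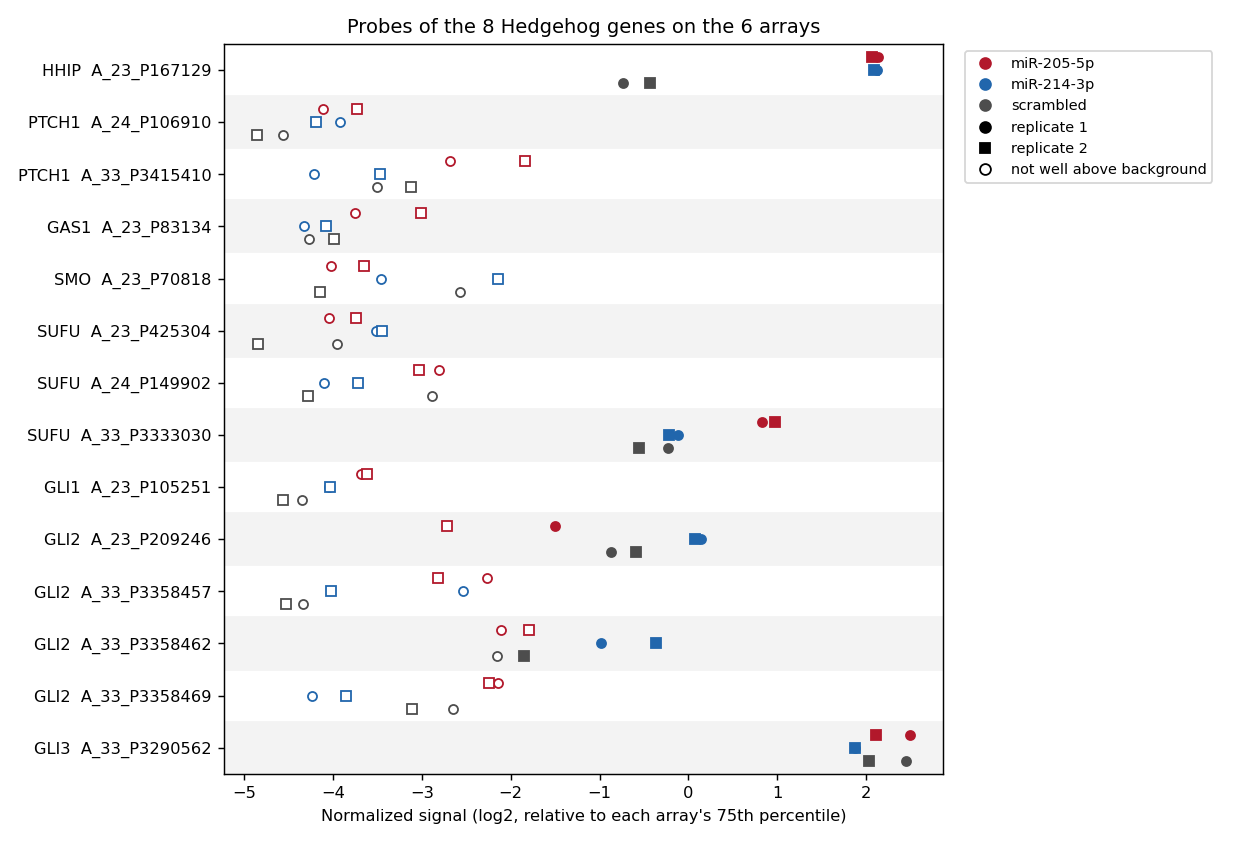
Normalized signal (log2, relative to each array's 75th percentile, x axis) of the 14 probes of the 8 genes (rows) on the 6 arrays. Circles are replicate 1 and squares replicate 2, and open symbols were not well above background. HHIP lies near 2.1 on all 4 precursor arrays and below 0 on both control arrays, and most probes of the other genes are open.

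Receptors and transducer were dim. Both probes of PTCH1, the ligand receptor, were not well above background on any array (-4.86 to -1.84). GAS1, a co-receptor that helps ligand reach PTCH1, was not either (-4.33 to -3.01), nor was SMO (-4.14 to -2.15). GLI1, the GLI factor that is itself a response gene, was in the same state (-4.56 to -3.61). HHIP was therefore the only one of the response genes HHIP, PTCH1 and GLI1 with a signal on these arrays. A difference in the others was not detectable at these signals. Of the 14 probes, 5 passed the filter on dim signal, standing for 4 of the 8 genes, and each of them other than HHIP was tested with limma. A call needed a change of 2-fold or more and a p under 0.05 after adjustment over all probes kept.

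SUFU, which binds GLI factors and restrains them, had 3 probes. The probe for transcript NM_001178133 read 0.83 and 0.97 with hsa-miR-205-5p, -0.12 and -0.22 with hsa-miR-214-3p and -0.23 and -0.55 in the control. The hsa-miR-205-5p arrays lay above the other 4, and the lower hsa-miR-214-3p array lay just above the higher control array. The difference from the control was 1.29 (SE 0.18, 95% interval 0.83 to 1.75, limma adjusted p = 0.0131) with hsa-miR-205-5p, and that from hsa-miR-214-3p was 1.07 (0.61 to 1.53, adjusted p = 0.0124). For the other precursor the difference from the control was 0.22 (-0.24 to 0.68, adjusted p = 0.52). Both probes for NM_016169 were not well above background on any array (-4.84 to -2.81), so the rise rests on 1 of the 3 probes. The call against the control ended when either hsa-miR-205-5p array (differences 1.22 and 1.36) or either hsa-miR-214-3p array (1.29 in both fits) was left out, and under scaling to the median (0.90) the change was below 2-fold.

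GLI2, the main activator among the GLI factors, had 4 probes, of which 2 were kept. The brighter read -1.50 and -2.72 with hsa-miR-205-5p, 0.14 and 0.07 with hsa-miR-214-3p and -0.87 and -0.59 in the control. The groups did not overlap, with the hsa-miR-214-3p arrays highest and the hsa-miR-205-5p arrays lowest, and hsa-miR-205-5p replicate 2 was not well above background. GLI2 was lower with hsa-miR-205-5p than with hsa-miR-214-3p by -2.22 (95% interval -3.23 to -1.20, adjusted p = 0.0147). Neither precursor passed against the control (-1.38, adjusted p = 0.0691, and 0.83, adjusted p = 0.293). The first of these passed without hsa-miR-205-5p replicate 1 (-1.99, adjusted p = 0.0384) and with scaling to the median (-1.77, adjusted p = 0.0372), and was smaller without replicate 2, the dim array (-0.77, adjusted p = 0.138), and with normexp correction (-0.26, adjusted p = 0.165). Without either hsa-miR-214-3p array the difference between the precursors (-2.18 and -2.25) no longer passed, and with normexp it was -0.59, under 2-fold.

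The second kept GLI2 probe read -2.11 and -1.80 with hsa-miR-205-5p, -0.98 and -0.37 with hsa-miR-214-3p and -2.16 and -1.85 in the control. Only the hsa-miR-214-3p arrays stood out, and both hsa-miR-205-5p arrays were not well above background. The level with hsa-miR-205-5p was at least 1.92-fold lower than with hsa-miR-214-3p (measured difference -1.28, adjusted p = 0.0216), a call that ended when any 1 of the 4 precursor arrays was left out (-1.59 to -0.97). The call stayed in 10 of 18 alternatives. Over these the smallest difference was -0.14, so the bound holds for the main scaling. This probe passed the filter through the hsa-miR-214-3p group alone, where it is high, so the difference is given as a description. An "at least" fold sets the brighter group's mean against, on each dim array, the higher of the probe's value and the lowest signal well above background. It is no strict limit, since some probes not well above background read higher than that lowest signal. CUL1 read -1.31 on hsa-miR-205-5p replicate 1, where the lowest was -1.79. The spread of the brighter group is also left out. For this GLI2 probe scrambled replicate 1 was not well above background either, so the difference of 0.05 between hsa-miR-205-5p and the control is one between dim values. Against the control hsa-miR-214-3p stood at 1.33, which did not pass (adjusted p = 0.0678). The remaining 2 GLI2 probes were not well above background on any array (-4.53 to -2.14).

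GLI3, which acts mostly as a repressor when the pathway is off, was well above background on all 6 arrays. It read 2.50 and 2.11 with hsa-miR-205-5p, 1.88 and 1.88 with hsa-miR-214-3p and 2.45 and 2.03 in the control. The groups of hsa-miR-205-5p and the control overlapped. The differences were 0.06 (95% interval -0.51 to 0.63, adjusted p = 0.861), -0.36 (-0.93 to 0.21, adjusted p = 0.402) and, between the precursors, 0.42 (-0.15 to 0.99, adjusted p = 0.198), so none passed the test. The intervals cover changes of up to those bounds.

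The wider pathway was read from a list of 76 genes by role, of which 73 had a probe. Without HHIP, 72 had a probe and 47 had one that could be tested. Each gene was represented by its kept probe with the highest mean signal.

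With hsa-miR-205-5p against the control, 2 of the 47 genes rose (4.26%) and 5 fell (10.6%). Over all 11974 genes tested, 4.78% rose and 7.98% fell, so the shares in the pathway list were near the background. The median difference was 0.09 in the list and 0.08 over all genes. The genes that rose were SUFU and SPOPL, and those that fell were ARRB1, MOSMO, ULK3, PRKACA and NKX3-2. Over genes well above background on both arrays of 2 or more groups, which leaves out CDON, DHH, KIF3A, MOSMO and SCUBE1, 4 of 42 fell (9.52%, against 8.05% of 11249 genes). Scaling to the median, which moved the median difference of all genes from 0.08 to -0.31, gave 0 higher and 13 lower. The count of 7 became 5 without hsa-miR-205-5p replicate 1, 0 without hsa-miR-205-5p replicate 2 (9 at an unadjusted p under 0.05 with limma and 2-fold), 4 without either hsa-miR-214-3p array and 12 without scrambled replicate 1, and a plain per-probe test on the 4 arrays compared gave 7 unadjusted and 0 adjusted. With normexp correction PRKACA alone of the 7 passed (-1.50), and the others were under 2-fold (SUFU 0.48, SPOPL 0.41, ARRB1 -0.46, MOSMO -0.20, ULK3 -0.93 and NKX3-2 -0.55), so the bounds given for dim genes below hold for the main scaling.

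With hsa-miR-214-3p against the control, 1 of 47 rose (2.13%) and 0 fell, against 1.09% and 2.03% of all genes. At an unadjusted p with limma, 4 were higher and 3 lower by at least 2-fold, and by the plain test 2 and 1 (0 of either once adjusted). The median difference was 0.04 in the list and -0.01 over all genes. The gene that rose was SPOPL. Its call ended when any 1 array other than scrambled replicate 2 was left out (differences 1.80 to 2.07), and 5 genes passed without scrambled replicate 2. With normexp it was 0.56 and did not pass.

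Between the precursors, 4 of 47 were higher with hsa-miR-205-5p (8.51%) and 9 were lower (19.1%), against 9.18% and 11.3% of all genes. The median difference was -0.22 in the list and 0.12 over all genes. The higher genes were IHH, DISP2, GRK2 and SUFU, and the lower ones LRP2, ARRB1, GLI2, ULK3, PRKACA, FOXF2, JAG2, RAB34 and NKX3-2. With scaling to the median 2 were higher and 14 lower. Leaving out an array gave counts of 8 without either hsa-miR-205-5p array, 6 without hsa-miR-214-3p replicate 1, 3 without hsa-miR-214-3p replicate 2 and 14 without either control array. With normexp correction DISP2, PRKACA and RAB34 passed, and the other 10 genes were under 2-fold, from -0.90 (NKX3-2) to 0.45 (SUFU). Calls were also lost without 1 array for DISP2 (2.03 without hsa-miR-214-3p replicate 2) and JAG2 (-2.41 without that array), for ULK3 (-1.21 and -1.20 without either hsa-miR-214-3p array), for SUFU (1.00 to 1.14 without any 1 precursor array), for GRK2 (0.96 to 1.20 without any 1 precursor array other than hsa-miR-205-5p replicate 2) and for RAB34 (-1.11 to -0.99 without any 1 other than hsa-miR-205-5p replicate 1).

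**Figure D2:**
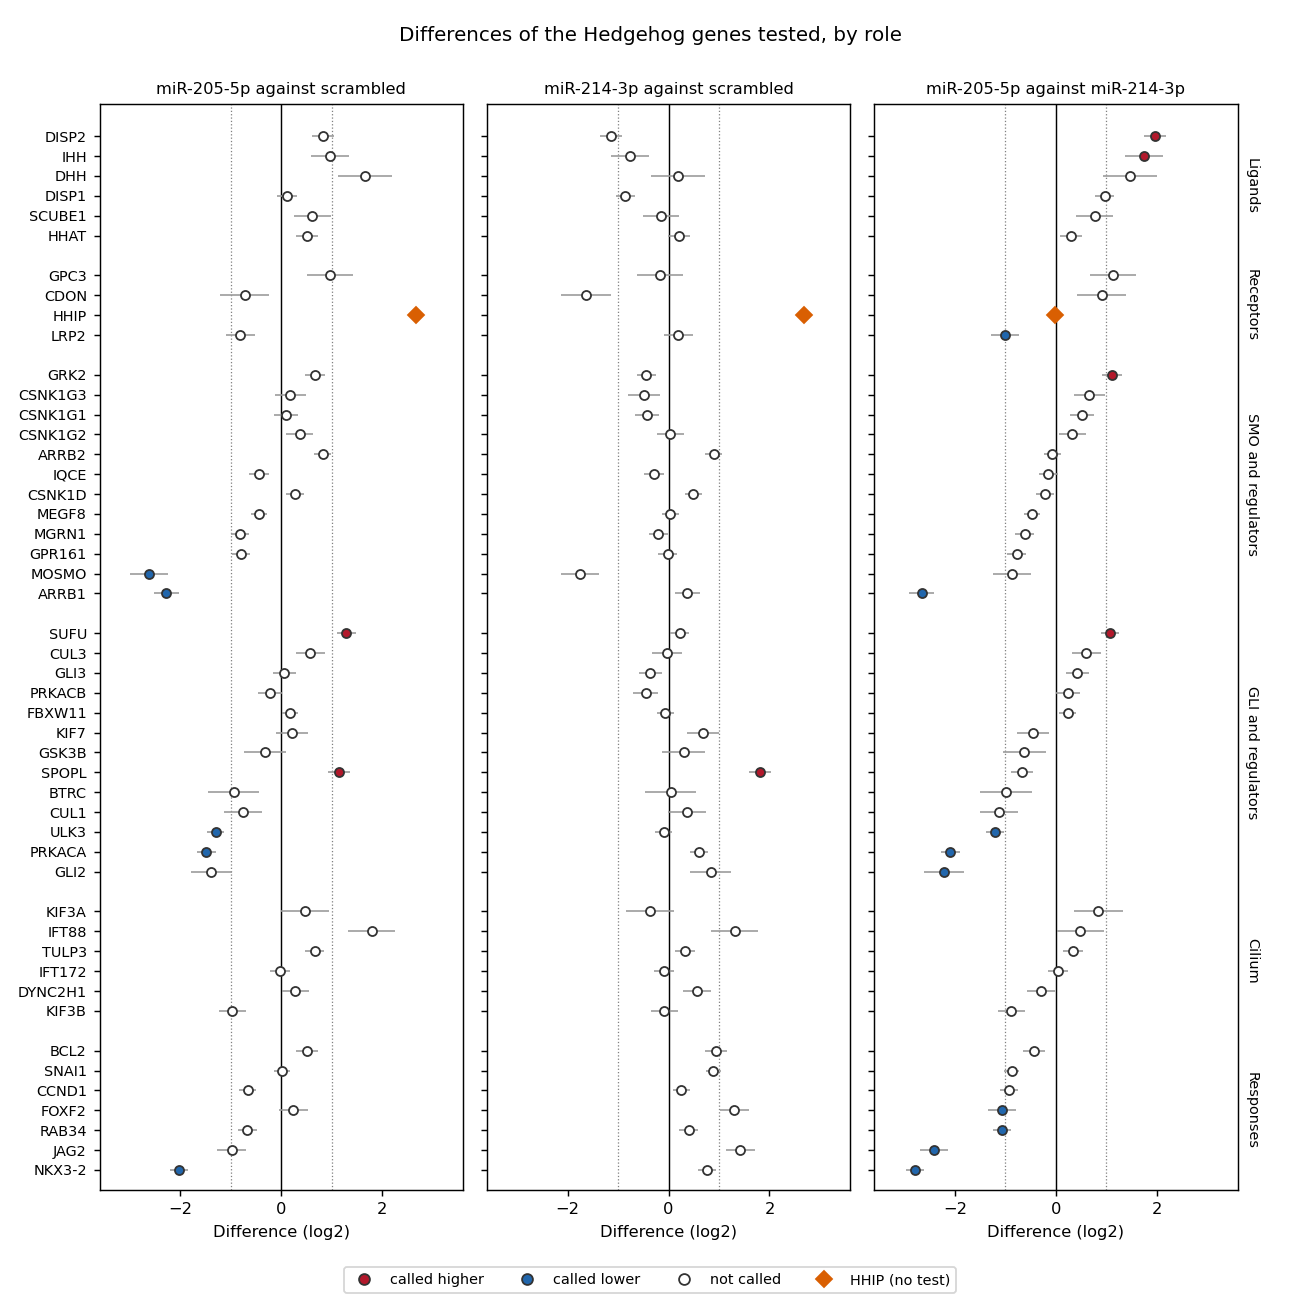
Log2 difference (x axis) of the 47 tested Hedgehog genes and HHIP (rows, by role) in the 3 comparisons, with bars for 1 standard error from limma and dotted lines at 2-fold. Filled circles passed the test and the fold limit, open circles did not, and the diamond is HHIP, which has no test. HHIP lies at 2.68 and 2.69 against the control and at -0.01 between the precursors, and the 7 response genes all lie below 0 between the precursors.

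Among the ligands and the genes of their release, 6 of 9 were tested and none passed against the control with limma (0 called with either precursor, and 1 with each at an unadjusted p). Over all genes 4.78% rose and 7.98% fell with hsa-miR-205-5p, and 1.09% and 2.03% with hsa-miR-214-3p, so few calls among 6 genes would be near the background. Between the precursors 2 of 6 were higher with hsa-miR-205-5p, against 9.18% of all genes, and all 6 lay above 0 in the main scaling and in the 4 other backgrounds and scalings tried, with a median of 1.22. In the main scaling 56.1% of all genes lay above 0. Of the 6, DHH passed the filter through the hsa-miR-205-5p group alone and SCUBE1 through the control alone, and the median of the other 4, all above 0, was 1.36. IHH, one of the Hedgehog ligands, read -0.32 and -0.36 with hsa-miR-205-5p, -1.62 and -2.55 with hsa-miR-214-3p and -0.97 and -1.65 in the control. Its arrays with hsa-miR-205-5p were the highest, the control and hsa-miR-214-3p overlapped, and the difference between the precursors was 1.74 (SE 0.38, adjusted p = 0.0233). Replicate 2 of hsa-miR-214-3p was not well above background for IHH. Without that array the difference was 1.27 (adjusted p = 0.109), without either hsa-miR-205-5p array it was 1.72 and 1.76 and did not pass either, and the call stayed in 11 of 18 alternatives. DISP2, a relative of the ligand-releasing protein DISP1, read 6.17 and 6.13, 4.12 and 4.25, and 5.58 and 5.08 in the same order. The groups did not overlap, and the difference between the precursors was 1.97 (SE 0.21, adjusted p = 0.00489). Against the control DISP2 stood at 0.83 (adjusted p = 0.0507) and -1.14 (adjusted p = 0.0589), neither of which passed.

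Of the receptors, co-receptors and ligand-binding proteins other than HHIP, 3 of 9 were tested and none passed against the control (0 called by limma). At an unadjusted p, 0 passed with hsa-miR-205-5p and 1 with hsa-miR-214-3p. The shares of all genes called were 4.78% higher and 7.98% lower with hsa-miR-205-5p, and 1.09% and 2.03% with hsa-miR-214-3p. LRP2, an endocytic receptor for ligand, was lower with hsa-miR-205-5p (-1.05 and -1.45) than with hsa-miR-214-3p (-0.52 and 0.03), by -1.01 (adjusted p = 0.0455), with control values of -0.66 and -0.24. Replicate 2 of hsa-miR-205-5p was not well above background, so a difference this near the 2-fold limit rests in part on a dim value. The call stayed in 8 of 18 alternatives and ended when any 1 of the 4 precursor arrays was left out (-1.28 to -0.73). CDON, a co-receptor, was not well above background on both hsa-miR-214-3p arrays (-3.42 and -2.30), below the control (-1.18 and -1.27), and did not pass (adjusted p = 0.137). It passed the filter on dim signal through the control alone, where it is high, so these values are a description. BOC and HHIPL2 were not above background on any array, and neither were the ligand SHH and the release factors SCUBE2 and SCUBE3.

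Among SMO and its regulators, 12 of 18 were tested and 2 fell with hsa-miR-205-5p, against 7.98% of all genes, 1 of them (MOSMO) kept through the control group alone. ARRB1, a beta-arrestin that binds phosphorylated SMO, read -2.87 and -2.52 with hsa-miR-205-5p, -0.19 and 0.11 with hsa-miR-214-3p and -0.65 and -0.18 in the control. Both hsa-miR-205-5p arrays were not well above background and lay under all others, while the other groups overlapped. ARRB1 was at least 2.30-fold lower than in the control (measured difference -2.28, adjusted p = 0.00885) and at least 2.98-fold lower than with hsa-miR-214-3p (-2.65, adjusted p = 0.00401).

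MOSMO, which lowers the amount of SMO at the cell surface, read -3.90 and -3.52 with hsa-miR-205-5p, -2.39 and -3.28 with hsa-miR-214-3p and -0.77 and -1.40 in the control. Only the control arrays were well above background. MOSMO was at least 1.44-fold lower with hsa-miR-205-5p (-2.62, adjusted p = 0.0136), a bound that lies under 2-fold. The probe passed the filter on dim signal through the control group alone, where it is high, so its fall is no independent result. The paper lists qRT-PCR primers for this transcript, named C16ORF52 there, and reports such checks of selected target genes. Its qRT-PCR values were not compared here. With hsa-miR-214-3p MOSMO was at least 1.88-fold lower and did not pass (adjusted p = 0.0792). GRK2, a kinase that phosphorylates SMO, read 0.55 and 0.25, -0.80 and -0.62, and -0.15 and -0.40 in the same order of groups. It was higher with hsa-miR-205-5p than with hsa-miR-214-3p by 1.11 (SE 0.19, adjusted p = 0.0132), and the groups did not overlap. CSNK1G3, a casein kinase, had 2 kept probes that went the same way in these comparisons but differed in size. The dimmer, whose hsa-miR-214-3p replicate 2 was not well above background, differed by -1.85 between hsa-miR-214-3p (-1.70 and -2.51) and the control (-0.54 and 0.03), which did not pass (adjusted p = 0.0559), and was lower with hsa-miR-214-3p than with hsa-miR-205-5p (-0.09 and -0.27; 1.92 between the precursors, adjusted p = 0.0131), while the brighter one, which stands for the gene, differed by -0.48 (adjusted p = 0.411) and 0.66 (adjusted p = 0.152).

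GLI factors and their regulators had 13 of 17 genes tested, of which 2 rose and 2 fell with hsa-miR-205-5p, against 4.78% and 7.98% of all genes, and 1 rose with hsa-miR-214-3p, against 1.09%. SPOPL, a relative of the GLI-degrading adaptor SPOP, read -0.99 and -0.91 with hsa-miR-205-5p, -0.27 and -0.30 with hsa-miR-214-3p and -1.85 and -2.35 in the control. The groups did not overlap. SPOPL was the only tested gene of the list to pass with both precursors, at 1.15 (SE 0.21, adjusted p = 0.0229) and 1.82 (SE 0.21, adjusted p = 0.0315), against the same control arrays. With hsa-miR-205-5p the call ended without any 1 array other than scrambled replicate 1 (differences 0.90 to 1.19) and with scaling to the median (0.76). It also fell under 2-fold in the authors' table (0.96). The SPOPL call stayed in 8 of 19 alternatives with hsa-miR-205-5p and in 9 of 19 with hsa-miR-214-3p.

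Both kinases that fell act on GLI proteins. PRKACA, a catalytic subunit of protein kinase A, read 1.77 and 1.86 with hsa-miR-205-5p, 3.80 and 4.01 with hsa-miR-214-3p and 3.15 and 3.44 in the control. The groups did not overlap. PRKACA fell by 1.48 on the log2 scale with hsa-miR-205-5p (SE 0.18, adjusted p = 0.0104), was not called with hsa-miR-214-3p (0.61, adjusted p = 0.14), and lay lower by -2.09 between the precursors (adjusted p = 0.00397), a call that stayed in 19 of 19 alternatives. ULK3, a kinase of GLI proteins, read 0.54 and 0.34, 1.64 and 1.65, and 1.85 and 1.63. The hsa-miR-205-5p arrays lay under the others, by -1.30 against the control (SE 0.17, adjusted p = 0.0116) and -1.20 against hsa-miR-214-3p (adjusted p = 0.00807). Leaving out hsa-miR-205-5p replicate 2 ended every one of the calls against the control with this precursor (ARRB1 -2.46, MOSMO -2.81, NKX3-2 -2.06, PRKACA -1.53 and ULK3 -1.20 without it). MOSMO was also lost without hsa-miR-205-5p replicate 1 (-2.43), and ULK3 without either hsa-miR-214-3p array (-1.30).

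The cilium is the compartment in which SMO acts on the GLI factors. Of 7 cilium genes 6 were tested, with 0 called by limma in any of the 3 comparisons (1, 1 and 0 at an unadjusted p). Of all genes, 4.78% rose and 7.98% fell with hsa-miR-205-5p, and 1.09% and 2.03% with hsa-miR-214-3p. Between the precursors 9.18% were higher with hsa-miR-205-5p and 11.3% lower. The cilium medians were 0.38, 0.12 and 0.20, against 0.08, -0.01 and 0.12 over all genes. With scaling to the median they were -0.01, -0.05 and -0.03, against -0.31, -0.18 and -0.10 over all genes.

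Of 17 genes often reported as responses to the pathway, other than HHIP, 7 were tested and those not tested included PTCH1 and GLI1. With hsa-miR-205-5p 1 of them fell, against 7.98% of all genes. With hsa-miR-214-3p none was called (0 by limma, and 2 at an unadjusted p), against 1.09% of all genes higher and 2.03% lower. Against the control, 3 lay above 0 and 4 below with hsa-miR-205-5p (median -0.67; 1 and 6 with scaling to the median), and all 7 lay above 0 with hsa-miR-214-3p (median 0.89), also in the 4 other backgrounds and scalings. In the main scaling 49% of all genes lay above 0 with hsa-miR-214-3p. These comparisons share the control arrays. Between the precursors 4 of 7 were lower with hsa-miR-205-5p, against 11.3% of all genes, and all 7 lay below 0 in the main scaling and in the 4 other backgrounds and scalings, with a median of -1.06. In the main scaling 43.9% of all genes lay below 0. NKX3-2, a transcription factor of the skeleton and gut wall, read -1.85 and -1.78 with hsa-miR-205-5p, 0.95 and 1.01 with hsa-miR-214-3p and 0.39 and 0.05 in the control. It was at least 3.56-fold lower with hsa-miR-205-5p than in the control (measured difference -2.03, adjusted p = 0.008) and at least 6.04-fold lower than with hsa-miR-214-3p (-2.79, adjusted p = 0.00383), since both hsa-miR-205-5p arrays were not well above background.

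JAG2, a ligand of Notch receptors, read -1.58 and -2.10, 0.57 and 0.57, and -0.55 and -1.16 in the same order, and the groups did not overlap. Between the precursors it was lower by -2.41 (SE 0.28, adjusted p = 0.00533), with hsa-miR-205-5p replicate 2 not well above background, and against the control it did not pass (-0.99, adjusted p = 0.0643, and 1.42, adjusted p = 0.0651). FOXF2, a forkhead transcription factor, read 0.49 and 0.47, 1.59 and 1.49, and -0.16 and 0.64. It was lower with hsa-miR-205-5p than with hsa-miR-214-3p by -1.06 (adjusted p = 0.0402), and the control arrays spanned those of hsa-miR-205-5p. The FOXF2 call ended when any 1 of the 4 precursor arrays was left out (-1.11 to -1.02, adjusted p from 0.127 to 0.174). RAB34, a small GTPase needed to build cilia, read 4.09 and 3.94, 5.13 and 5.03, and 4.53 and 4.84, with a difference of -1.07 between the precursors (adjusted p = 0.0123). In these 4 genes the control lay between the precursors or across hsa-miR-205-5p, whereas HHIP was at one level with both precursors. A difference between HHIP and these genes was not tested.

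**Figure D3:**
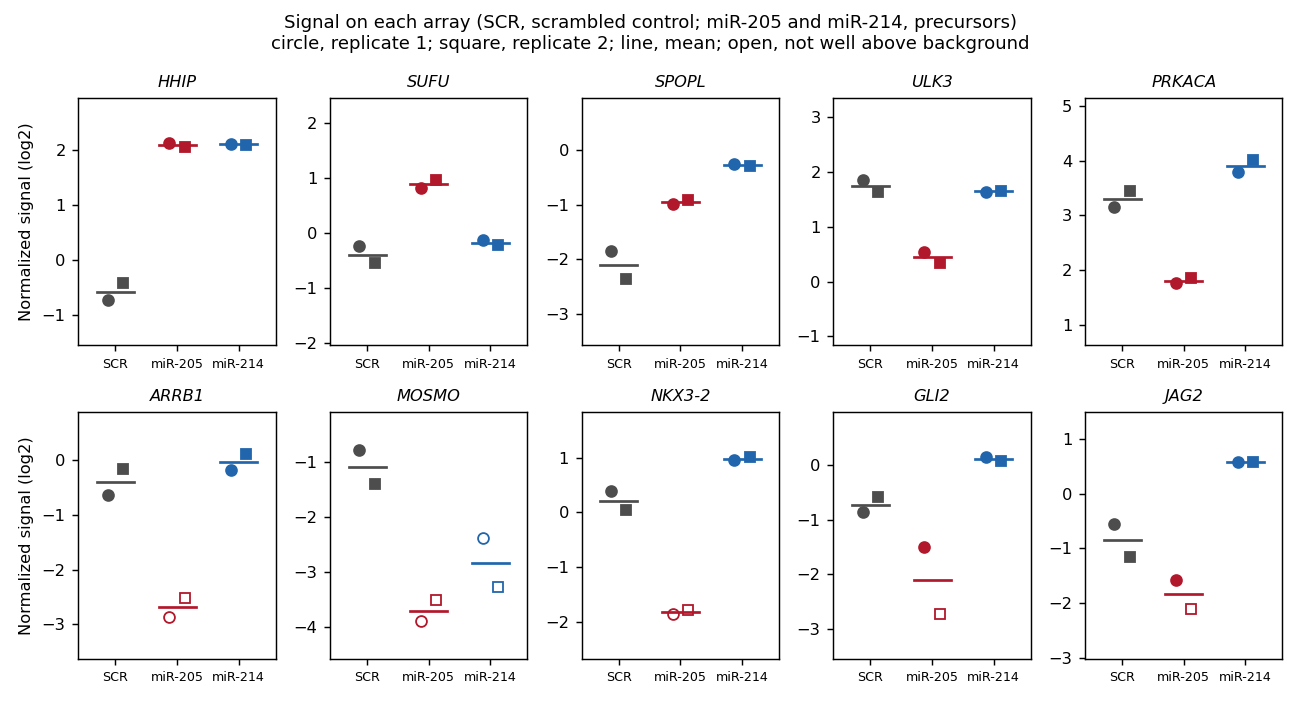
Normalized signal (log2, y axis) on each array for HHIP and 9 further genes of the list, with all panels spanning the same range. SCR is the scrambled control. Circles are replicate 1, squares replicate 2, lines the group mean, and open symbols were not well above background. HHIP and SPOPL are higher with both precursors, SUFU with hsa-miR-205-5p alone among the calls, and ULK3, PRKACA, ARRB1, MOSMO and NKX3-2 are lower with hsa-miR-205-5p. MOSMO is well above background in the control alone and also lies lower with hsa-miR-214-3p.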

How the data were processed

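MDA-MB-231 RNA was hybridized to Agilent SurePrint G3 Human GE arrays. The authors deposited Feature Extraction output (version 11.0 in the submitters' processing notes), with a background-subtracted, detrended intensity per spot. A log2 value per probe and array was deposited as well (50739 rows, sorted values identical between arrays) and served as an alternative. The methods name GeneSpring, a p-value threshold and a 2-fold limit, without stating for these arrays whether p was adjusted, and give a two-tailed Student comparison as the study's general test.

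Control and outlier spots (245 to 463 per array) were left out, the remaining spots were averaged by probe, and log2 intensity was scaled to each array's 75th percentile. Of 50599 probes, 18468 were kept because some group had them well above background on each of its arrays. Probes were named through RefSeq transcripts (GRCh38.p14, names only, since the array design uses another build), which gave a symbol to 83.3% of those kept. limma 3.58.1 (lmFit, eBayes) in R 4.3.3 was fitted to the 6 arrays together, with p adjusted by Benjamini-Hochberg across the kept probes, and was tested on simulated data. Plots used matplotlib 3.10.9. Array number limits precision, with 3 residual degrees of freedom.

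The members and lists were chosen with earlier results of these data known. Named are all 8 genes, list genes called or with both arrays of a precursor beyond both controls by 1 log2 unit, the 5 probes most alike to HHIP, and the 5 rises on each side of HHIP. Alternatives were normexp correction (offset 50), quantile and median scaling, the authors' table, filters, fewer arrays, a replicate block, an intensity trend, a plain per-probe test and other thresholds.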

Additional observations from a re-analysis of the deposited data

How the results depend on the processing

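The rise of HHIP kept its direction in every alternative run. It moved to 1.51 (hsa-miR-205-5p) and 1.56 (hsa-miR-214-3p) with normexp correction, and to 2.29 with hsa-miR-205-5p under scaling to the median. The normexp offset of 50 is near the control signals of HHIP (30.2 and 43.1), and its part in the smaller differences was not tested. With each array left out the rise lay between 2.52 and 2.83 and between 2.53 and 2.84.

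Counts of called list genes depended on the processing, and the cause was not tested beyond the number of probes or arrays each setting removes. For hsa-miR-205-5p against the control (7 genes), normexp gave 3 (1 shared), median scaling 13 (5 shared), no filter 2, probes above background on all 6 arrays 4, the 4 arrays compared 4 and the plain test after adjustment 0 (7 unadjusted), with 0 to 12 when an array was left out. For hsa-miR-214-3p (1 gene), quantile normalization, median scaling, the authors' table and the intensity trend each gave 2, no filter 0 (9 unadjusted), all 6 arrays 3, the 4 arrays compared 0 (7 unadjusted), unadjusted p 7, and the plain test 3 unadjusted and 0 adjusted, with 0 to 5 when an array was left out. normexp gave 1 gene there, 0 of them shared. Between the precursors (13 genes), normexp gave 3, no filter 6, all 6 arrays 7 and the plain test after adjustment 8, with 3 to 14 when an array was left out. In those fits the remaining array of a group took its spread from the other groups.

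The replicate number did not pair the arrays, since deviations of same-numbered arrays correlated at 0.109, 0.008 and -0.051. The replicate block gave 7 genes for hsa-miR-205-5p, 0 for hsa-miR-214-3p (7 at an unadjusted p in limma) and 12 between the precursors, where FOXF2 and LRP2 were no longer called, and left HHIP at 2.68 and 2.69. Slide and scan were not fitted as blocks because the 6 arrays share 1 of each.

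For single genes, 427 values kept their side of the threshold, 116 became weaker, 4 stronger and 9 changed sign. All 9 were differences near 0 of hsa-miR-205-5p against the control. GLI3 went from 0.06 to -0.30 with normexp, -0.33 with median scaling and from -0.15 to 0.27 with an array left out. The dimmer kept GLI2 probe, whose hsa-miR-205-5p arrays were both dim, went from 0.05 to -0.12 with quantile normalization, -0.34 with median scaling, -0.11 with the authors' table and from -0.10 to 0.21 with an array left out. Genes near background limit the list, since 25 of 72 with a probe could not be tested.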
